A study of Mus musculus with 18 samples.

Results

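The BCL2 family decides whether the outer membrane of the mitochondrion is opened and a cell enters apoptosis. The transcripts of 10 of its genes were followed in mouse bone marrow-derived macrophages: Bcl2, Bcl2l1 and Mcl1, which protect cells, Bax and Bak1, which open the membrane, and Bcl2l11, Bid, Bmf, Bbc3 and Pmaip1, which trigger death. The members were taken by symbol and made up 10 of the 24059 gene symbols in the deposited count tables. The study profiled mRNA in 18 libraries, 3 in each of 6 groups, to ask how reconstituted high-density lipoprotein (rHDL) changes the response of macrophages to lipopolysaccharide (LPS), a bacterial cell wall component that activates the Toll-like receptor TLR4.

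All groups were macrophages grown from the bone marrow of C57BL/6J mice in medium conditioned by L929 cells, a source of macrophage colony-stimulating factor, and later kept in less of that medium with no serum listed. A first table held untreated macrophages and macrophages given LPS. A second table held macrophages given LPS alone, rHDL before LPS, cholesterol loading before LPS, and cholesterol loading followed by rHDL before LPS. The rHDL was CSL111, particles of apolipoprotein A-I and soybean phosphatidylcholine, and was washed off before LPS was added. Loading was done with liposomes of cholesterol and the phospholipid POPC. No group had rHDL or loading without LPS, so every effect of rHDL or loading was measured in LPS-treated cells. The sources used here do not give the dose or duration of LPS, the age of the mice, or whether the replicates came from separate cultures or animals. The p-values therefore measure only the spread between these libraries, which may be technical.

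Library totals ranged from 11450243 to 16835472 counts in the first table and from 9464916 to 15607889 in the second. In the second table the rHDL libraries without loading were the deepest, with 12666846 to 15607889 counts against 9528888 to 11106817 with LPS alone. Of 9 macrophage markers, 8 were found by symbol and 1 of these, Itgam, was at 0 in every library. Only 3 of the 4682 exon bases of Itgam were not shared with another row, and reads over shared bases were not counted. Its 0 therefore does not show that the transcript was absent. The 8 markers summed to 24813 to 32816 CPM (counts scaled to a common library size by TMM factors) in the first table. In the second they summed to 18438 to 20134 CPM with LPS alone and 9470.5 to 11903 with rHDL before LPS. With rHDL 5 of the 7 tested macrophage markers fell and 1, Cd68, rose. Lymphoid markers summed to at most 0.513 CPM in any library. The 7 neutrophil markers summed to 82.2 to 104 CPM in the first table, 13.0 to 16.0 with LPS alone in the second, and 3.24 to 5.15 with rHDL before LPS, where both tested ones fell. In the first table nearly all of that sum was Mmp8, at 90.1 CPM untreated and 80.1 CPM with LPS. S100a8 was at 1.51 and 4.15 CPM there, and the others had means below 1 CPM. S100a9 was at 0, with 3 of its 524 exon bases not shared with another row. Mast cell, erythroid and megakaryocyte markers summed to 54.5 to 61.4 CPM with LPS alone and 32.4 to 43.4 with rHDL, where both tested ones fell. Stromal markers summed to 57.7 to 59.6 CPM and 107 to 135 CPM, with 1 of 3 tested, Vwf, called higher, and dendritic cell markers to 70.6 to 95.1 and 102 to 117 CPM with none of 3 called. In the first table, LPS libraries held more of the mast cell, erythroid and megakaryocyte markers (62.0 to 98.8 against 14.3 to 30.4 CPM) and of the dendritic ones (575 to 739 against 356 to 506 CPM). There the former sum was mostly Pf4 (78.4 against 20.3 CPM) and the latter mostly Itgax (657 against 442 CPM). The part of these shifts and of the depths in the results below was not tested.

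The members work by binding one another. BAX and BAK1 sit inactive until they assemble into pores that release cytochrome c, which activates caspases. BCL2, BCL-XL (encoded by Bcl2l1) and MCL1 hold them, and the BH3-only proteins, so called for the single homology domain they share with the rest of the family, either occupy these guardians or activate the pore formers directly. BIM (Bcl2l11) responds to loss of growth factors, BID to caspase-8 downstream of death receptors, BMF to loss of attachment, and PUMA (Bbc3) and NOXA (Pmaip1) to p53 and other stresses. MCL1 is a short-lived protein on which neutrophils are known to depend. Macrophages challenged with bacterial products are known to alter the balance of these proteins.

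To show where the measured transcripts begin, the promoters of Bcl2, Bbc3 and Bmf, the 3 members that fell with LPS, are printed with that of Mcl1, the most abundant member per kilobase in every group. Each is the 250 bases upstream of the RefSeq gene start (GRCm38.p6), 5′ to 3′ on the strand of the gene. Capitals mark matches on either strand to a GC box (GGGCGG) or a CCAAT box (CCAAT).
Bcl2, chr1:106714291-106714540, minus strand: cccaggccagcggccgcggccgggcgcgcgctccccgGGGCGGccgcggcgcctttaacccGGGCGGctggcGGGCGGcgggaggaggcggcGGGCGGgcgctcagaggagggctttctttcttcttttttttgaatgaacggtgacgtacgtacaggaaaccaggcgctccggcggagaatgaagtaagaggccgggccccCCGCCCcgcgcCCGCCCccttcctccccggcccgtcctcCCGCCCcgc
Bbc3, chr7:16309333-16309582, plus strand: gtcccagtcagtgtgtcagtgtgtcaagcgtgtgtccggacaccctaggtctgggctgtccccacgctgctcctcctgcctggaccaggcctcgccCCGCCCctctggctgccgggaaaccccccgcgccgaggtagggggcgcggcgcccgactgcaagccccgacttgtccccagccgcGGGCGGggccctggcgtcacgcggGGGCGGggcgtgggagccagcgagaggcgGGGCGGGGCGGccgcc
Bmf, chr2:118549687-118549936, minus strand: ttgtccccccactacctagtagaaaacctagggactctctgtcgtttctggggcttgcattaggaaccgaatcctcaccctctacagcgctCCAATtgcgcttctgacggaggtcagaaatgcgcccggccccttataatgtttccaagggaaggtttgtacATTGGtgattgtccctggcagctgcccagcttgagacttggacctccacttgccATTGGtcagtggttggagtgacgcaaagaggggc
Mcl1, chr3:95658471-95658720, plus strand: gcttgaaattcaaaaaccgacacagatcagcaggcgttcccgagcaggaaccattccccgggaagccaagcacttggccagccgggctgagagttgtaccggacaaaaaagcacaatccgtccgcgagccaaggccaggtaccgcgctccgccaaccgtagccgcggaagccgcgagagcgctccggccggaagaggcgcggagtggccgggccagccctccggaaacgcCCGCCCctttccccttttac

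The Bcl2 window was 74.8% G and C with 7 GC boxes, the Bbc3 window 76.4% with 5, the Mcl1 window 64.4% with 1, and the Bmf window 54.0% with no GC box and 3 CCAAT boxes. The median of all 32817 RefSeq windows was 52.4%. Member windows on chromosome 18, where Pmaip1 lies, were left out. The other 9 of the 10 members had a window, and all 7 motifs were searched on both strands. A GC box was found in 6 of the 9 windows and in 32.7% of all windows, and a CCAAT box in 2 of 9 (Bcl2l11 and Bmf) and 33.8% of all. The E-box CACGTG was found in 1 (Bax; 6.02% of all) and the forkhead motif GTAAACA in 1 (Bcl2l11; 3.16% of all). The TATA motif TATAAA (12.4% of all), the kappa light-chain enhancer form of the NF-kB motif (0.14% of all) and the interferon response motif, GAAA separated by any 2 bases from another GAAA (2.97% of all), were found in none of the 9. A match describes letters and not a bound site, and none of the 7 motifs contains another.

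How well a member could be measured depended on its transcripts. The tables have 32850 rows, 1 for each transcript, and a read over an exon that several rows share was left out of all of them: 6698 rows shared all their exon bases with other rows, and 6697 of these had 0 counts in every library. Mcl1 (chr3, 95658721 to 95663178 in mm10, plus strand), Bax (chr7, 45461695 to 45466898, minus), Bak1 (chr17, 27019812 to 27028626, minus), Bid (chr6, 120893119 to 120916820, minus), Bmf (chr2, 118528757 to 118549678, minus), Bbc3 (chr7, 16309583 to 16318334, plus) and Pmaip1 (chr18, 66458604 to 66465558, plus) were each listed as 1 row and were counted over all their exons. Bcl2 (chr1, 106538178 to 106714290, minus) had 2 rows and kept 74.3% of its exon bases. Bcl2l1 (chr2, 152758732 to 152831728, minus) had 4 rows and kept 17.8%, and Bcl2l11 (chr2, 128126038 to 128162547, plus) had 5 rows and kept 5.69%, or 406 bases. The values of Bcl2l1 and Bcl2l11 therefore describe the parts of single isoforms, not the whole gene.

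**Figure D1:**
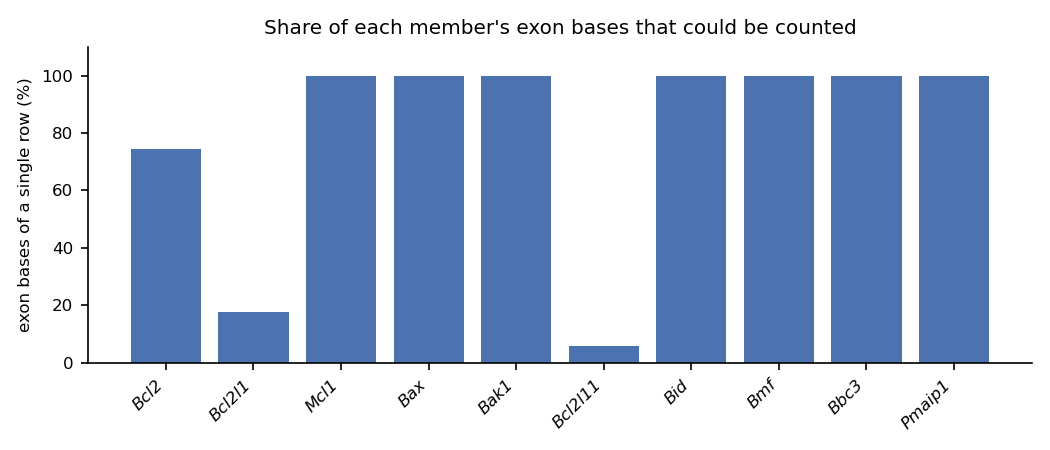
Share of each member's exon bases that belongs to a single row of the count tables (y axis, percent; x axis, members). The other members are at 100, Bcl2 is at 74.3, Bcl2l1 at 17.8 and Bcl2l11 at 5.69.

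Per kilobase of countable exon, the members spanned a wide range in untreated macrophages. Mcl1 led with 296 ± 11.0 CPM per kilobase (SD, n = 3), followed by Bax with 148 ± 5.58. Bak1 stood at 36.1 ± 2.33, and Bid at 21.3 ± 0.130 and Bbc3 at 21.1 ± 1.19 could not be ordered within their spread. Pmaip1 was at 4.81 ± 0.217, with Bmf at 4.07 ± 0.182, Bcl2 at 3.74 ± 0.382 and Bcl2l11 at 3.58 ± 0.703 next. Neighbours among the last 3 overlapped. Reads that ran from countable into shared bases were left out too, so the level of Bcl2l11 may be understated and its place is uncertain. Bcl2l1 gave 9 counts over the 3 untreated libraries and at most 6 in any other group, a level of at most 0.318 CPM in any library. With only 17.8% of its exon bases countable, this leaves no comparison for Bcl2l1 at this depth. In these macrophages the survival members therefore ran from the top (Mcl1) to near the bottom (Bcl2) of the per-kilobase order.

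**Figure D2:**
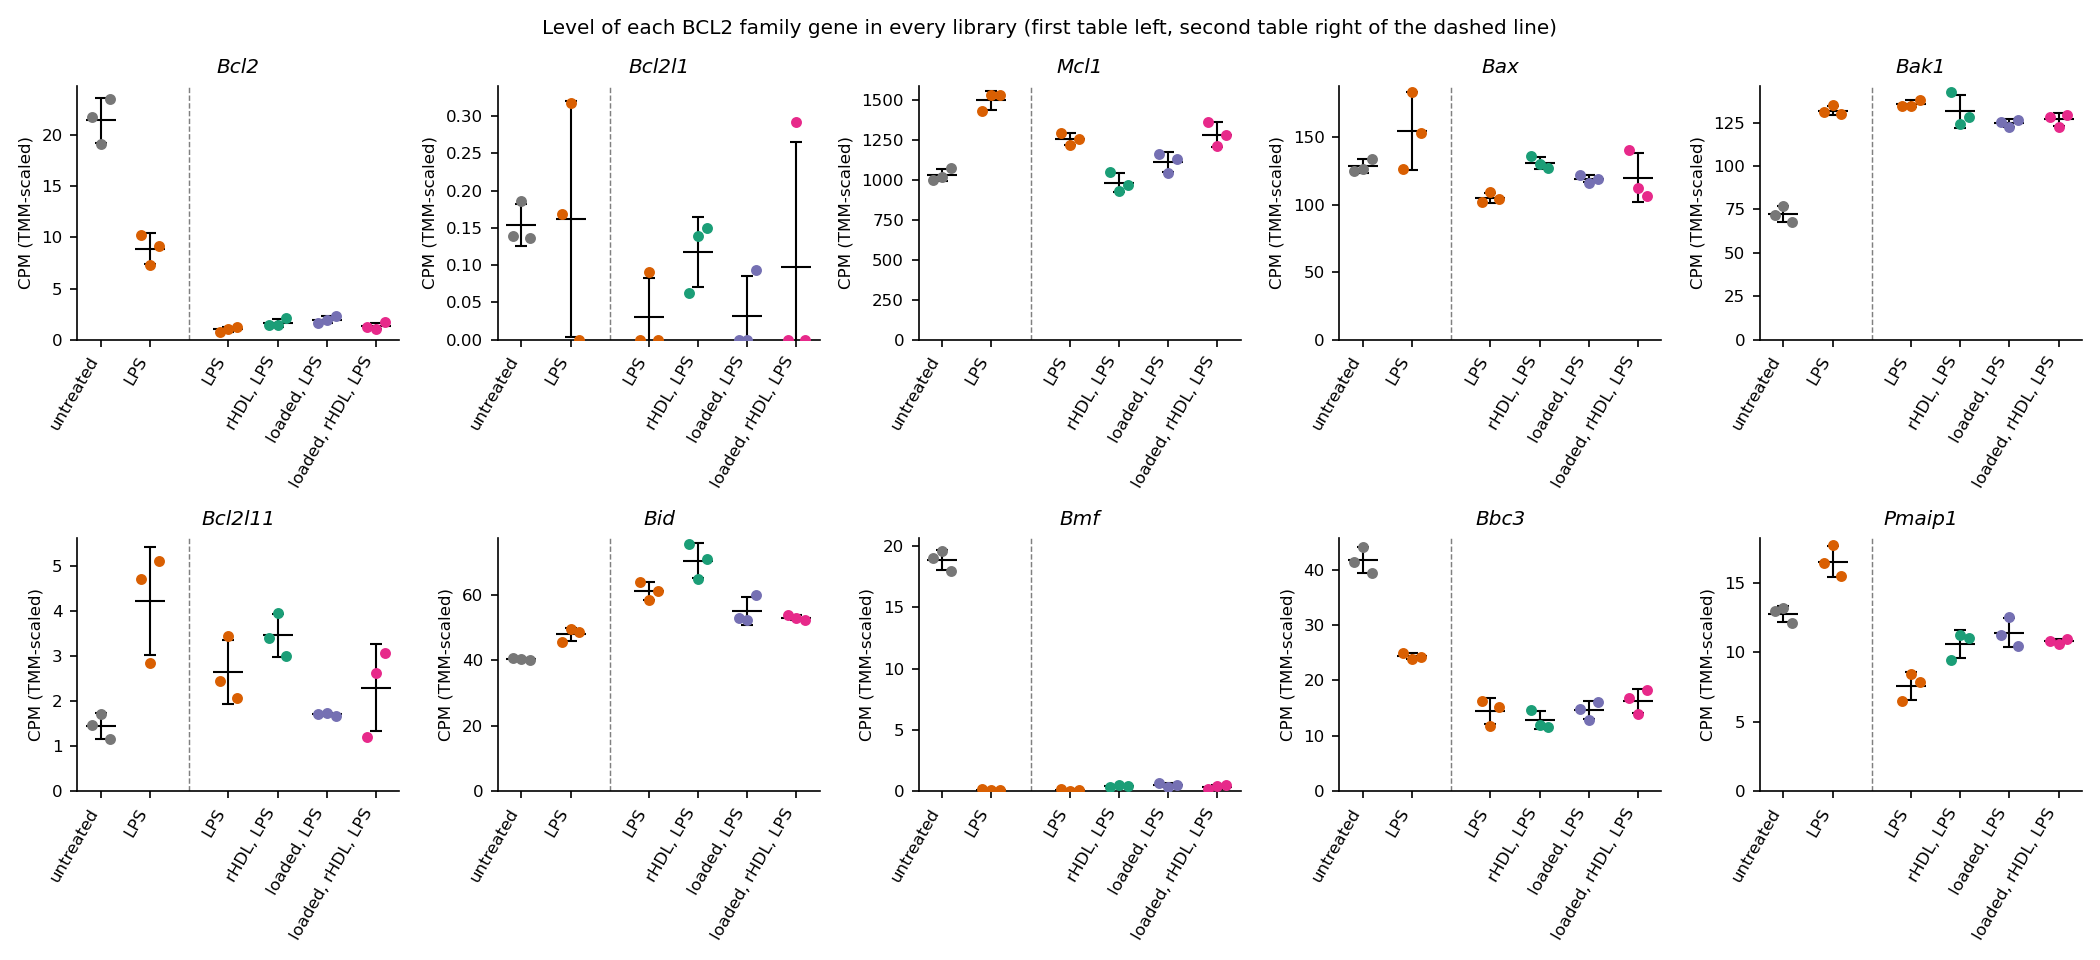
Level of each member in every library (y axis, CPM scaled by TMM factors, not per length; points are libraries, black marks the mean with its SD, n = 3; x axis, the 6 groups, first table left and second table right of the dashed line). Mcl1 lies between 934 and 1533 CPM throughout, while Bmf is near 19 CPM in untreated libraries and below 1 CPM in all others.

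LPS against untreated macrophages asked how the family changes on activation. Of 9 tested members 8 passed the test (edgeR quasi-likelihood, Benjamini-Hochberg over 9576 genes), 5 higher and 3 lower, where 72.9% of all genes tested were called (35.3% higher, 37.6% lower). The groups of the same 8 did not overlap, where 76.1% of all genes did not. Mcl1, Bak1, Bcl2l11, Bid and Pmaip1 rose, and Bcl2, Bmf and Bbc3 fell. The counts depend on scaling factors such as TMM, which hold the bulk of genes level. With DESeq2 size factors in edgeR 6 members were called higher, Bax among them, and 3 lower. Over all genes that scale called 3553 higher and 3453 lower. The DESeq2 test called all 9 members, beside 3469 genes higher and 3303 lower. When library totals alone set the scale, the median of all genes moved from -0.05 to -0.77 (log2), 1532 genes were called higher and 6640 lower, 1 member was called higher and 7 lower, and Mcl1, Bax, Bid and Pmaip1 changed sign. Levels in the following paragraphs carry the TMM scale and describe each member relative to the bulk of genes.

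Bmf, the BH3-only sensor of lost attachment, showed the greatest change of the 9. Its levels in untreated libraries were 19.0, 19.6 and 17.9 CPM (1095 counts in all), and in LPS libraries 0.168, 0.0794 and 0.0867 CPM (4 counts in all). The transcript was thus nearly at the counting floor after LPS and the groups lay far apart. The difference was -7.31 ± 0.24 on the log2 scale (edgeR, adjusted p = 4.76e-10), a fitted value that depends on the prior count, and the ratio of untreated to LPS levels from the counts alone was 171 (95% counting interval 66.5 to 628). In bulk RNA, fewer cells that express a gene and less of its RNA per cell cannot be told apart, here and below. Under library totals alone the difference was -8.00.

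Bcl2, the founding survival member, fell too. Its levels were 21.8, 19.2 and 23.5 CPM in untreated libraries and 10.3, 7.31 and 9.19 CPM with LPS. Every LPS library lay below every untreated one. The log2 difference was -1.27 ± 0.14 (95% interval -1.65 to -0.89; edgeR, adjusted p = 8.74e-06), and -1.98 under library totals. Bbc3, which encodes the p53 target PUMA, was at 41.5, 44.2 and 39.5 CPM without LPS and at 25.0, 23.9 and 24.3 CPM with it. Its groups did not overlap either, and the log2 difference was -0.78 ± 0.08 (edgeR, adjusted p = 8.49e-06), or -1.49 under library totals. These 3 members fell under TMM factors and under library totals.

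Mcl1, a survival member, was at 999, 1020.0 and 1074 CPM in untreated libraries and at 1430.2, 1533 and 1531 CPM with LPS. The LPS libraries were all above the untreated ones on this scale. The log2 difference was 0.54 ± 0.08 (95% interval 0.33 to 0.75; edgeR, adjusted p = 6.39e-05), against -0.18 (edgeR, adjusted p = 0.0385) under library totals. Its direction thus rests on the scaling.

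Of the pore formers, Bak1 rose on the TMM scale from 71.8, 77.1 and 67.9 CPM to 131, 135 and 130.0 CPM. The log2 difference was 0.87 ± 0.07 (edgeR, adjusted p = 1.3e-06), and 0.15 under library totals with an adjusted p = 0.0824 (edgeR). Bax was at 125, 127 and 134 CPM without LPS and at 127, 184 and 154 CPM with it. The groups of Bax overlapped through LPS replicate 1, and the difference of 0.27 ± 0.12 (95% interval -0.06 to 0.59) did not pass (edgeR, adjusted p = 0.0607). Without LPS replicate 1 the adjusted p was 0.0011 (edgeR), and under library totals Bax was called lower (-0.45; edgeR, adjusted p = 0.00282).

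Bcl2l11 (BIM) was counted over 406 bases only, with 1.48, 1.72 and 1.16 CPM in untreated and 4.71, 2.86 and 5.11 CPM in LPS libraries (86 and 151 counts). All LPS libraries were higher, by 1.5 ± 0.26 on the log2 scale (95% interval 0.77 to 2.23; edgeR, adjusted p = 0.000355), and by 0.79 under library totals (edgeR, adjusted p = 0.0156). It was the only member called higher under TMM factors and under library totals. Bid moved from 40.5, 40.3 and 40.0 CPM to 45.7, 49.5 and 48.6 CPM, a log2 difference of 0.25 ± 0.08 (edgeR, adjusted p = 0.0119), which reached -0.47 (adjusted p = 0.000149) under library totals. Without untreated replicate 1 the TMM difference of Bid had an adjusted p of 0.0509 (edgeR). Pmaip1 (NOXA) moved from 13.0, 13.2 and 12.1 CPM to 16.4, 17.7 and 15.5 CPM, by 0.37 ± 0.10 (edgeR, adjusted p = 0.00636), and by -0.34 (adjusted p = 0.00953) under library totals. For Bid and Pmaip1, as for Mcl1, the sign turned with the scale.

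**Figure D3:**
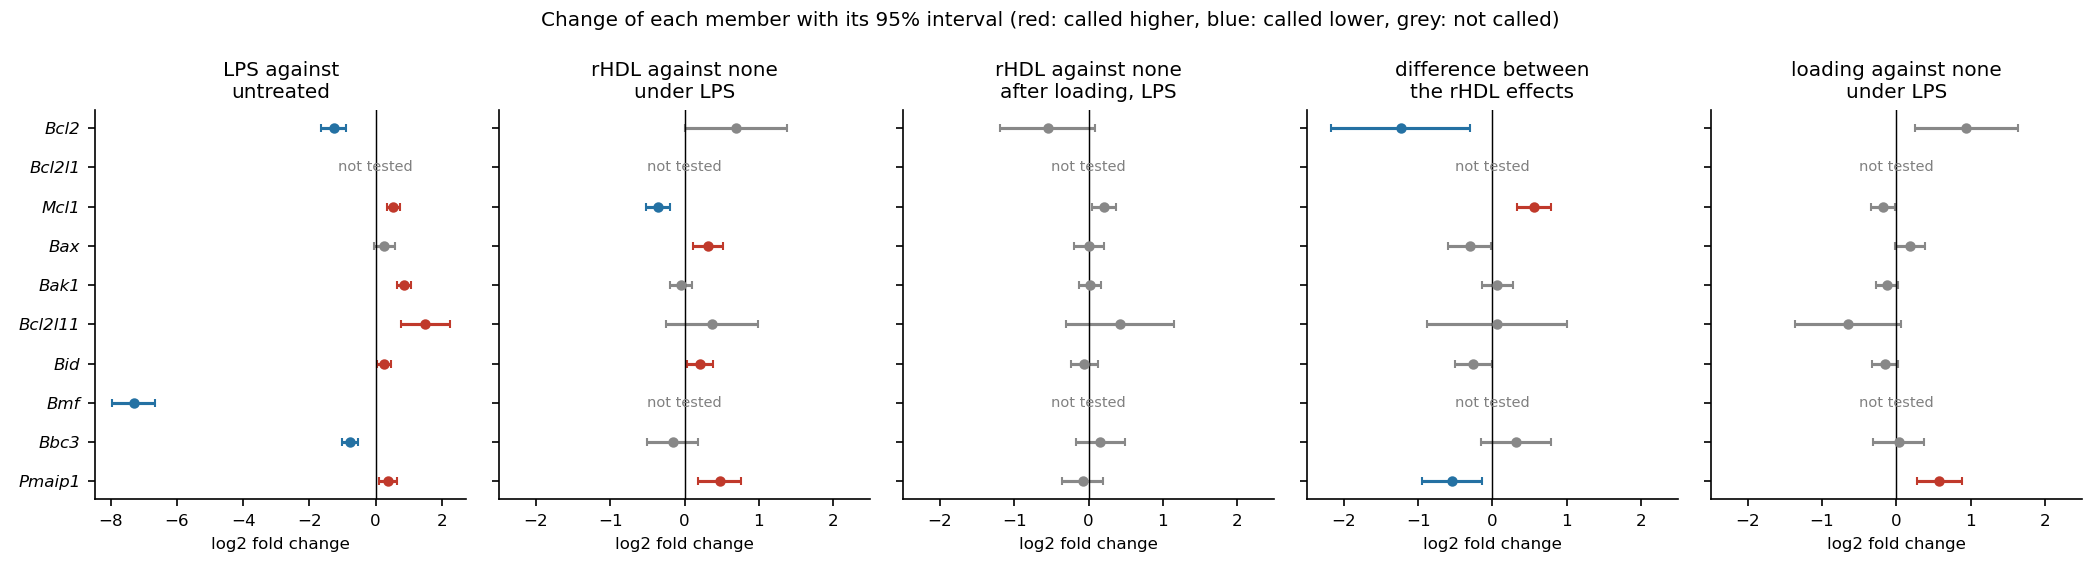
Change of each member (rows) in the 5 comparisons (panels), as log2 fold change (x axis) with its 95% interval; red was called higher, blue lower and grey not called at an adjusted p of 0.05. With LPS 5 members are red and 3 blue, with rHDL under LPS 3 red and 1 blue, and after loading none is coloured; the x axis of the LPS panel is wider.

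rHDL before LPS against LPS alone asked what rHDL does to the response. Of 8 tested members, 4 passed (edgeR, over 8965 genes), 3 higher and 1 lower, where 36.5% of all genes were called. Mcl1 fell, and Bax, Bid and Pmaip1 rose. The groups of 5 members, these and Bcl2, did not overlap, where 51.4% of all genes did not. Over all genes 18.1% were called higher and 18.4% lower, a split of 2507 higher and 1273 lower genes under library totals, with which 4 members were called higher and 1 lower. The members' count was 2 without LPS replicate 1 of this table. Macrophage markers fell in the same libraries, as given above.

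Mcl1 was at 1293, 1218 and 1258 CPM with LPS alone and at 1047, 934 and 966 CPM with rHDL. No rHDL library reached the lowest LPS library. The log2 difference was -0.35 ± 0.07 (95% interval -0.52 to -0.19; edgeR, adjusted p = 0.00111), and it passed without any 1 of the libraries. Bax moved the other way, from 102, 109 and 104 CPM to 136, 130.2 and 127 CPM. Its groups did not overlap, the log2 difference was 0.32 ± 0.09 (95% interval 0.12 to 0.52; edgeR, adjusted p = 0.0106), and it too passed without any 1 library. A survival transcript, Mcl1, was thus lower and a pore-former transcript, Bax, higher in the same libraries. The other tested members of these roles, Bcl2 (0.69) and Bak1 (-0.05), were not called.

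Pmaip1, whose protein NOXA binds MCL1, was at 6.49, 8.45 and 7.85 CPM with LPS alone and at 9.42, 11.3 and 11.1 CPM with rHDL. All rHDL libraries were higher, by 0.47 ± 0.13 on the log2 scale (95% interval 0.18 to 0.76; edgeR, adjusted p = 0.00909). The adjusted p was 0.0540 without LPS replicate 1. In the authors' deposited table of rHDL against none, which lists 1609 genes, Pmaip1 is the only member, with a log2 fold change of 0.46, a standard error of 0.17 and an adjusted p of 0.0286. The name of that list points to a fold cut as well, and the RPKM ratio of Pmaip1 in it is 1.51. Smaller changes, such as those fitted here for Mcl1 and Bax, would be left out by such a cut whatever their p. Bid, cut by caspase-8 to its active form, was at 63.9, 58.5 and 61.3 CPM and at 75.4, 64.8 and 71.0 CPM. Its difference of 0.20 ± 0.07 was near the threshold (edgeR, adjusted p = 0.0467) and was lost without any 1 of the LPS libraries or of rHDL replicates 1 and 3 (edgeR, adjusted p from 0.0595 to 0.205) and with DESeq2 (0.0930).

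The other members did not pass. Bcl2 was at 0.745, 1.09 and 1.20 CPM with LPS alone and at 1.45, 1.39 and 2.11 CPM with rHDL, 30 against 71 counts. Its groups did not overlap, but the log2 difference of 0.69 ± 0.30 (95% interval 0.00 to 1.37) had an adjusted p of 0.0861 (edgeR). Bak1 was at 135, 134 and 138 CPM against 142, 124 and 128 CPM, a difference of -0.05 ± 0.06 whose interval ran from -0.19 to 0.10. Bbc3 differed by -0.16 ± 0.15 (interval -0.50 to 0.18) and Bcl2l11 by 0.37 ± 0.27 (interval -0.25 to 0.98). Bmf was too sparse to test, at 3 counts with LPS alone and 18 with rHDL, a ratio of levels of 4.08 with a counting interval of 1.19 to 21.6.

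rHDL against none in cholesterol-loaded cells asked whether the effect holds once macrophages carry extra cholesterol. None of the 8 tested members passed (edgeR), where 1.02% of all genes were called (0.424% higher and 0.591% lower, or 25 and 67 genes under library totals). With the replicate number as a block in the fit, Mcl1 was called, as were 277 of all genes higher and 209 lower. Without the block, the all-gene count was 38 higher and 53 lower. It fell to 11 and 35, 10 and 20, and 13 and 22 without loaded replicates 1, 2 and 3. It fell to 20 and 35 and to 28 and 28 without loaded rHDL replicates 2 and 3, and rose to 68 and 55 without loaded rHDL replicate 1. At an unadjusted p of 0.05, 1 of the 8 members and 1044 of all 8965 genes passed with edgeR, and DESeq2 called 0 members after adjustment. That one was Mcl1, at 1161, 1043 and 1133 CPM after loading alone and at 1363, 1211 and 1279 CPM after loading and rHDL. Its rHDL libraries were all above the others, a lack of overlap that 15.3% of all genes had, by 0.21 ± 0.07 on the log2 scale (95% interval 0.05 to 0.37; edgeR, adjusted p = 0.218), where without loading they had all been below.

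Bax was at 122, 116 and 119 CPM after loading and at 141, 113 and 107 CPM with rHDL added, and the groups overlapped. Its difference was 0.01 ± 0.09 with an interval of -0.19 to 0.21. Pmaip1 was at 11.3, 12.5 and 10.5 CPM and at 10.8, 10.6 and 11.0 CPM, a difference of -0.08 ± 0.12 (interval -0.36 to 0.20). Bcl2 was at 1.63, 1.94 and 2.33 CPM and at 1.21, 1.07 and 1.70 CPM, a difference of -0.55 ± 0.28 (interval -1.19 to 0.09). Bak1, Bid, Bcl2l11 and Bbc3 differed by 0.02, -0.06, 0.42 and 0.16, all with overlapping groups. The authors' deposited table for this comparison lists 47 genes and none of the members, and its name points to the same fold cut.

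The difference between both rHDL effects was tested directly. Of 8 members 3 passed (edgeR), 1 higher and 2 lower, where 30.2% of all genes were called. Over all genes 16% were called higher and 14.2% lower, a split of 1016 and 2124 genes under library totals, with which 5 members passed. The rHDL effect on Mcl1 was higher after loading by 0.56 ± 0.10 on the log2 scale (95% interval 0.33 to 0.79; edgeR, adjusted p = 0.00072), and this passed without any 1 of the 12 libraries. For Pmaip1 it was lower by -0.55 ± 0.18 (interval -0.95 to -0.14; edgeR, adjusted p = 0.0291), and for Bcl2 by -1.23 ± 0.41 (interval -2.17 to -0.30; edgeR, adjusted p = 0.0335). The call of Bcl2, which rested on 30 to 71 counts a group, was lost in 7 of the 12 fits without 1 library (edgeR, adjusted p from 0.0515 to 0.0940), and that of Pmaip1 in 5 of them (0.0504 to 0.0889). With DESeq2 only Mcl1 remained. Bax (-0.31 ± 0.12; edgeR, adjusted p = 0.0777) and Bid (-0.26 ± 0.11; 0.0856) did not pass, but Bax passed without replicate 1 of the loaded rHDL group (-0.43; edgeR, adjusted p = 0.0014), the library in which Bax was at 141 CPM.

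**Figure D4:**
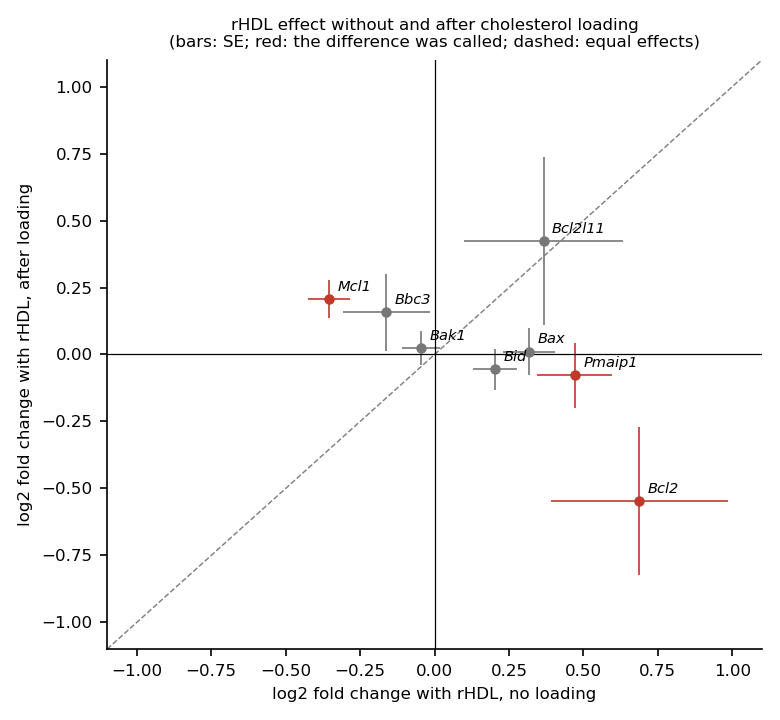
Log2 fold change with rHDL under LPS without loading (x axis) and after loading (y axis) for the 8 tested members, with SE bars; red members differed between both effects and the dashed line marks equal effects. Mcl1 lies at -0.35 and 0.21, Pmaip1 at 0.47 and -0.08, and Bcl2 at 0.69 and -0.55; the x and y contrasts share no library.

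Cholesterol loading itself was compared with no loading, both under LPS and without rHDL. Of the 8 tested members 1 passed (edgeR), where 8.57% of all genes were called (3.99% higher and 4.57% lower, or 626 and 254 genes under library totals, with which 2 members passed), while 6 had groups that did not overlap, where 32.9% of all genes did not. The all-gene count of 358 higher and 410 lower became 158 and 207, 245 and 349, and 169 and 212 without LPS replicates 1, 2 and 3. It became 234 and 243, 178 and 218, and 161 and 189 without loaded replicates 1, 2 and 3. The one called was Pmaip1, at 6.49, 8.45 and 7.85 CPM without and 11.3, 12.5 and 10.5 CPM with loading. The log2 difference was 0.58 ± 0.13 (95% interval 0.28 to 0.88; edgeR, adjusted p = 0.0132), with an adjusted p of 0.0713 without LPS replicate 1 and 0.0577 without loaded replicate 2. Loading shares its LPS group with the rHDL comparison, in which Pmaip1 was higher by 0.47. Bcl2 was higher with loading by 0.94 ± 0.30 (interval 0.25 to 1.64; edgeR, adjusted p = 0.0697) and Bax by 0.18, and Mcl1, Bak1 and Bcl2l11 were lower by -0.17, -0.12 and -0.65, all without overlap and without a call. Bid differed by -0.15 and Bbc3 by 0.03, with overlap. Bmf had 3 counts without and 16 with loading, a ratio of levels of 4.81 (counting interval 1.38 to 25.8).

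The LPS groups of both tables carry the same treatment name but were counted and scaled apart, so they are set side by side without a test. Bcl2 was at 8.92 ± 1.5 CPM (SD, n = 3) with LPS in the first table and at 1.01 ± 0.237 CPM in the second. Pmaip1 was at 16.5 ± 1.11 and 7.60 ± 1.00 CPM, Bbc3 at 24.4 ± 0.554 and 14.4 ± 2.33, Bax at 155 ± 28.7 and 105 ± 3.81, and Mcl1 at 1498 ± 58.9 and 1256 ± 37.4. Bid was the other way, at 47.9 ± 1.98 and 61.2 ± 2.69 CPM, and Bak1 was at 132 ± 2.60 and 136 ± 2.0. The level of Bcl2 against which rHDL was tested was thus far below that after LPS in the first table.

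The other genes of the death machinery give the setting, in lists chosen by known role. Of 15 further family genes 8 were tested, and with LPS 4 were higher and 2 lower (median 0.34, against -0.05 for all genes tested), which became 3 and 4 (median -0.38) under library totals. The A1 survival genes, which are near-identical copies between which reads cannot be assigned safely, carried the greatest rises. Bcl2a1b went from 74.8 ± 4.67 to 1571 ± 314 CPM (log2 difference 4.39 ± 0.15) and Bcl2a1d from 11.1 ± 0.796 to 456 ± 87.7 CPM (5.36 ± 0.15), and Bcl2a1a differed by 5.95 ± 0.13. Bcl2l2, which encodes the survival protein BCL-W, rose by 0.71 ± 0.08, a change of -0.01 under library totals. The mitophagy receptor Bnip3l fell by 1.03.

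With rHDL under LPS, 1 further family gene was higher and 2 lower (median 0.11, against 0.03 for all genes), and 4 higher and 2 lower under library totals. Bnip3, a hypoxia-responsive BH3-like gene, fell from 77.0 ± 11.8 to 40.4 ± 4.39 CPM (log2 difference -0.93 ± 0.14; edgeR, adjusted p = 0.00015), while its relative Bnip3l rose from 35.3 ± 1.90 to 51.5 ± 4.63 CPM (0.54 ± 0.10; edgeR, adjusted p = 0.000813). Bcl2a1a was lower by -0.64 ± 0.17 (edgeR, adjusted p = 0.00734), while its copies Bcl2a1b (0.26) and Bcl2a1d (0.16) did not pass. After loading, rHDL changed none of the 8 by the test. The rHDL effects on Bnip3 (1.03), Bnip3l (-0.69) and Bcl2a1a (0.94) differed between loaded and unloaded cells.

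Downstream of the mitochondrion, 10 of 12 caspase and apoptosome genes were tested with LPS, and 4 were higher and 5 lower (median -0.75), or 2 and 7 under library totals (median -1.46). Cycs, which encodes cytochrome c, went from 19.9 ± 1.17 to 60.6 ± 7.91 CPM, a log2 difference of 1.61 ± 0.11. With rHDL none of 8 was higher and 4 were lower (median -0.40; 1 and 3 under library totals), the mitochondrial protease gene Htra2 by -0.56 ± 0.10 among them. Of the 5 genes for inhibitors of apoptosis 4 were tested, of which 3 rose with LPS (median 1.32) and 3 fell with rHDL (median -0.41). Under library totals 2 were higher and 1 lower with LPS, and the rHDL count stayed at 3 lower. Birc3 (cIAP2) was at 107 ± 3.97 CPM untreated and 546 ± 43.5 CPM with LPS in the first table, a log2 difference of 2.35 ± 0.08, and differed by -0.47 ± 0.06 with rHDL (edgeR, adjusted p = 2.32e-05). Birc2 (cIAP1) differed by 2.14 ± 0.09 and -0.79 ± 0.12. Xiap, which binds caspases directly, differed by 0.50 with LPS and by -0.35 with rHDL, and the LPS value was -0.22 under library totals.

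At the death receptor and necroptosis arm, 9 of 11 tested genes rose with LPS and none fell (median 1.95), a split that became 6 and 3 under library totals. Zbp1, a sensor of unusual nucleic acid, rose by 4.88 ± 0.12, Mlkl, the necroptosis executioner, by 3.87 ± 0.11, and the death receptor gene Fas by 2.28 ± 0.09. With rHDL 5 fell and 1 rose (median -0.36): Fas differed by -0.71 ± 0.10, Zbp1 by -0.93 ± 0.14 and Mlkl by -0.69, and Fadd, the adaptor of Fas, by 0.34. After loading none of the 11 was called with rHDL, and the difference between both rHDL effects passed for 6, all in the higher direction. In that test 3 inhibitor genes and 3 caspase and apoptosome genes were called higher and none lower. Under library totals the counts were 6 higher and 1 lower for death receptors, 3 and 0 for inhibitors, and 2 and 2 for caspases.

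Among 12 tested p53 target genes outside the family, 5 were higher and 5 lower with LPS (median 0.04), and 2 higher and 3 lower with rHDL (median -0.02). Under library totals these became 3 and 7 with LPS (median -0.67) and 4 and 2 with rHDL (median 0.09). Plk2, a stress kinase gene, was the most raised by rHDL, from 383 ± 19.7 to 997 ± 15.3 CPM, by 1.38 ± 0.07. Phlda3, which restrains AKT, differed by -1.40 at a low level, 1.39 ± 0.634 against 0.513 ± 0.190 CPM (40 and 22 counts). Of 10 tested transcription factor genes known to act on the family, 5 were higher and 3 lower with LPS (median 1.00; 5 and 4 under library totals), the NF-kB gene Nfkb1 by 2.93 ± 0.08 and the forkhead gene Foxo3 by -3.04 ± 0.14. With rHDL 1 was higher, Irf4 by 1.20, and 3 were lower, of which 1 stayed called under library totals. Among genes that control MCL1 and BIM protein turnover 5 were tested with LPS (2 higher, 1 lower) and 4 with rHDL (1 lower, Usp27x by -0.62). Under library totals 0 were higher and 3 lower with LPS, and none was called with rHDL (Usp27x, edgeR, adjusted p = 0.0599). Bad, Apaf1 and Trp53 had too few countable bases or counts to be tested.

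**Figure D5:**
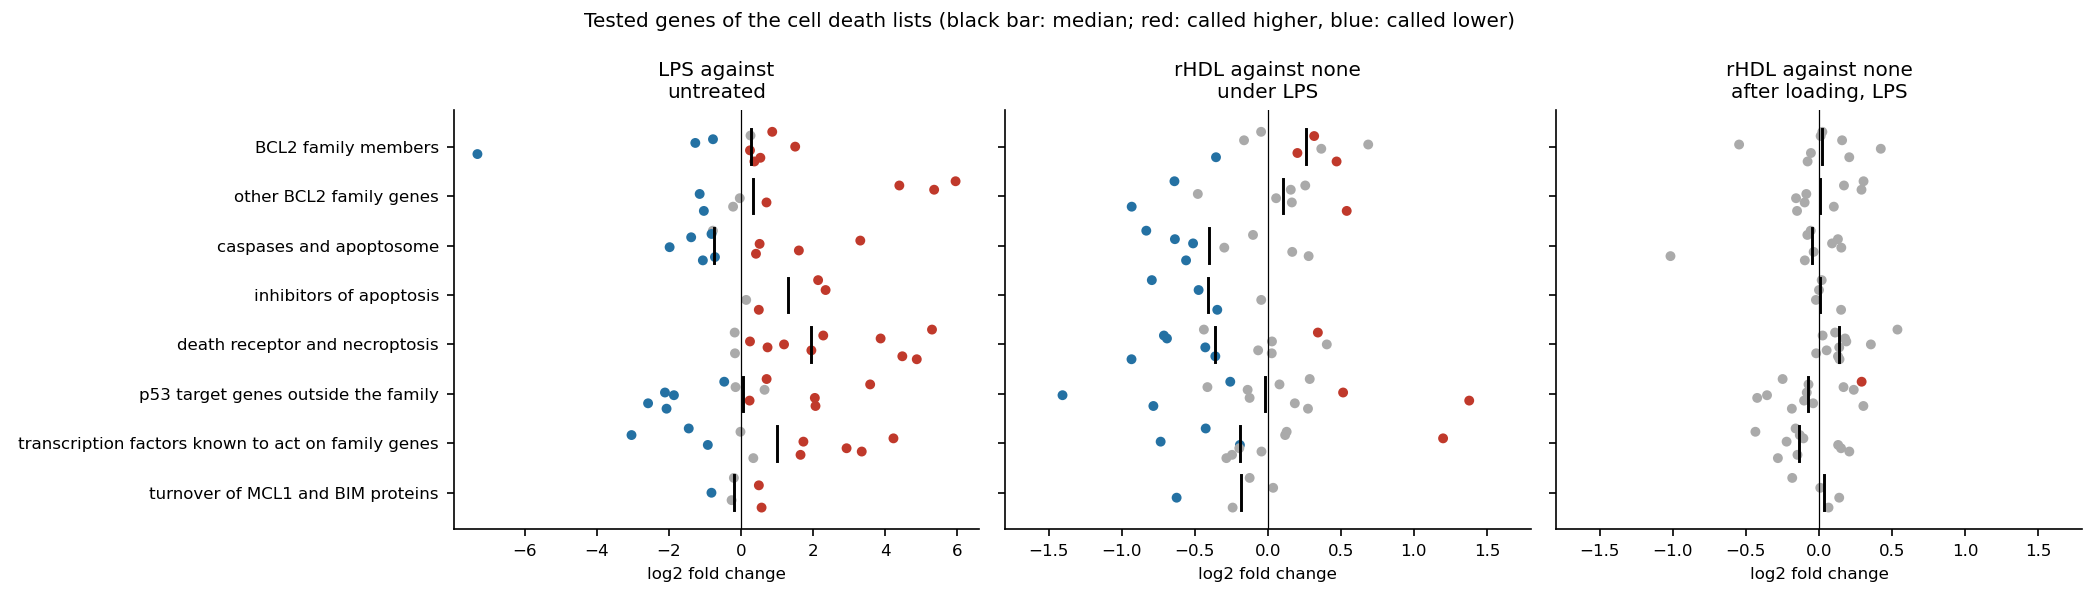
Log2 fold change (x axis) of each tested gene in the members and the 7 lists (rows) with LPS, with rHDL under LPS, and with rHDL after loading (panels); red was called higher, blue lower, and the black bar is the median. With rHDL the medians of the caspase, inhibitor and death receptor lists are -0.40, -0.41 and -0.36, and that of the members is 0.26.

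For the member of each role with the smallest p for rHDL under LPS, the genes outside the family with the most similar pattern over the 12 libraries of the second table were searched for among 5891 genes, all with mean log2 CPM no lower than 3. For Mcl1 these were Rap1b (Pearson r = 0.981), Sod2 (0.979) and Gpr84 (0.977). For Bax they were Bola2 (0.977), Commd1 (0.963) and Pebp1 (0.961), and for Pmaip1 Sord (0.942), Brms1l (0.910) and Ccl22 (0.895). The 12 points fall into 4 groups and share libraries and scaling factors, so these correlations describe the libraries.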

How the data were processed

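Poly(A) RNA of 18 macrophage libraries was sequenced. Per the submitters' processing notes, reads were trimmed with cutadapt, aligned to mm10 with HISAT2 and counted with Subread featureCounts, and DESeq2 was used; the sources used here give no versions. The authors deposited raw counts per transcript row in 2 tables, which were summed by symbol. The authors' deposited tables of comparisons also hold log2 fold changes, adjusted p-values and RPKM ratios (fold), which were only copied. Genes were kept with edgeR's filterByExpr (minimum count 10), scaled by TMM, and tested with edgeR 4.0.16 quasi-likelihood F tests (R 4.3.3), the 6 and the 12 libraries of the tables in separate fits. P-values were Benjamini-Hochberg adjusted over all genes of a comparison and called at 0.05. Each ± is an SD for levels and a standard error for log2 fold changes. All intervals are nominal 95% intervals, and counting intervals cover counting error only. Those of log2 fold changes used the residual degrees of freedom alone, fewer than the test used, and are wider than its p-values imply.

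Members and lists were chosen with earlier results of these data known. All 10 members were named; of each list, called genes with the smallest p were named, up to 4 a comparison. Bad, Apaf1 and Trp53, and the A1 copies beside Bcl2a1a, were named for how they could be counted. The fit was tested on simulated data: of 100 genes changed 2-fold it recovered 89 with LPS, 86 with rHDL, 86 with rHDL in loaded cells, 62 for the difference of both effects and 83 with loading, and of 100 changed 1.5-fold 64, 57, 45, 41 and 51. Between 5 and 13 unchanged genes were called. Far fewer genes were changed than were called here with LPS, with rHDL or for the difference, so recovery in those comparisons may differ. No 2 replicates agreed within sampling noise (lowest chi-square per degree of freedom 3.00). Alternatives were DESeq2 1.42.0, its size factors, library totals, no filter, the compared groups alone, a replicate block and each library left out.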

Additional observations from a re-analysis of the deposited data

Results flagged for a closer look

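The rHDL effect on 3 members differed between cholesterol-loaded and unloaded macrophages, by the contrast of both effects in the fit of 12 libraries (edgeR, 3 libraries a group). The effect on Mcl1 after loading minus that without was 0.56 on the log2 scale. The same difference was -1.23 for Bcl2 and -0.55 for Pmaip1. The direction held for each of these without any 1 of the 12 libraries, and the adjusted p stayed under the threshold in all of those fits for Mcl1 only.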

How the results depend on the processing

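The main counts of called members were 8 with LPS, 4 with rHDL, 0 with rHDL in loaded cells, 3 for the difference of the rHDL effects and 1 for loading. Leaving out 1 library gave 7 to 9, 2 to 4, 0 to 0, 1 to 3 and 0 to 1. With library totals the difference count was 5 and the loading count 2. DESeq2 gave 1 for the difference, and the 2 groups alone gave 2 for loading. With library totals the LPS changes of Mcl1 (-0.18), Bax (-0.45), Bid (-0.47) and Pmaip1 (-0.34) were negative, as were Bax (-0.048) and Bak1 (-0.033) with rHDL after loading and Bak1 (-0.10) and Bcl2l11 (-0.11) for the difference, while Bak1 with rHDL was 0.069. Without 1 library, uncalled changes crossed 0 for rHDL after loading in Bax (-0.12 to 0.091) and Bid (-0.087 to 0.0097), for the difference in Bcl2l11 (-0.21 to 0.37) and for loading in Bbc3 (-0.10 to 0.13). Under library totals the all-gene median was -0.77 with LPS, 0.14 with rHDL, -0.06 with rHDL in loaded cells, -0.20 for the difference and 0.09 with loading; other causes of changed calls were not tested.

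Nothing in the labels ties equal replicate numbers together, and the libraries were not treated as paired because not every same-numbered pair correlated over 0.1. The deviations of such pairs correlated between -0.0765 and 0.0741 in the first table. In the second they ran from -0.0302 to 0.436, 13 of 18 pairs were over 0.1, and 10 of 12 libraries lay closest to their own number, a hint of shared deviations from the data and not the design. With a replicate block the count of called members was 1 with rHDL in loaded cells (Mcl1), 5 for the difference and 3 with loading. Over all genes the block called 277 higher and 209 lower with rHDL after loading, where the count without it was 91, 1752 and 1691 for the difference, where it was 2704, and 717 and 934 for loading, where it was 768. For rHDL after loading DESeq2 called 89 and 75, no filter 90 and 86, and the 2 groups alone 19 and 23; for loading the 2 groups alone called 525 and 691. Bcl2l1 in both tables and Bmf in the second were limited by counts too few to test.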
